A study of Danio rerio with 8 samples.

Results

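The 6 genes described here are small leucine-rich proteoglycan genes of larval zebrafish cartilage: epyc (epiphycan), chad (chondroadherin), fmoda and fmodb (the 2 fibromodulin genes), dcn (decorin) and lum (lumican). They were taken by symbol from the deposited expression table. All 6 of 6 were found, among 32057 genes, and all 6 passed the filter on low values that left 11763 genes for testing. Messenger RNA came from chondrocytes (Danio rerio) that were sorted from whole larvae 3 days after fertilisation because they carried both reporters. The 4 WT libraries had the genotype Tg(sox10:EGFP); Tg(col2a1a:mcherry), and the 4 kat6a libraries had the same reporters together with kat6a, a histone acetyltransferase gene that the series design calls deficient. What the kat6a lesion is, the sources used here do not say. All larvae were kept at 28.5 degrees Celsius with 0.003% PTU, which blocks pigment. The sox10 reporter marks neural crest and its descendants and the col2a1a reporter marks cartilage, but col2a1a is also used in notochord and inner ear, and nothing in the labels says how many larvae went into a library. The comparison asks how kat6a deficiency changes expression in these cells, within a study of insulin-like growth factor and lymphatic vessels.

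Small leucine-rich proteoglycans are secreted proteins with a curved array of leucine-rich repeats, to which one or more sugar chains are often attached. In mammals they coat collagen fibrils, set fibril width and spacing, and hold growth factors such as TGF-beta. Cartilage is known for epiphycan, chondroadherin and fibromodulin, while decorin and lumican are better known from skin, tendon and cornea.

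Values are FPKM as deposited, a fragment count scaled by transcript length and by library size, so levels of different genes can be set side by side per length. Depth is unknown. In bulk sorted cells, fewer cells of a type and less RNA per cell cannot be told apart. Across the 8 libraries 11010 to 16108 genes stood above 0, with means of 14916 in WT and 13083 in kat6a. Of 44 proteasome subunit genes, which every cell uses, 12 were listed at 0 in at least 1 library. A 0 is therefore given only as a listed value. Both libraries numbered 1 stood apart: their col2a1a levels were 8994 (WT) and 10783 FPKM (kat6a), against 17360 to 20538 elsewhere. The targeted gene kat6a was 15.2 to 32.0 FPKM in WT and 9.09 to 28.2 in kat6a libraries, and each kat6a library was below the WT library with its number. The ranges overlap through the libraries numbered 1; in numbers 2 to 4 WT held 15.2 to 18.9 FPKM and kat6a 9.09 to 12.4. Markers of chondrocytes were abundant in every library, led by matn1 with 7687 to 21751 FPKM.

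The 6 genes spanned a wide range of levels, and their order was nearly the same in each library. Epyc was far the highest, followed by chad, fmoda, dcn, lum and fmodb. By mean FPKM over the 8 libraries epyc stood 12.5-fold above chad, chad 4.62-fold above fmoda, and fmoda 3.94-fold above dcn; these 4 genes kept that order in 8 of 8 libraries with no overlap of their ranges. Dcn and lum overlapped and were in order in 7 of 8 libraries, the exception being kat6a replicate 1. Lum stood above fmodb in 8 of 8 libraries although their ranges overlapped. The 6 genes together made up 0.284% to 0.891% of all FPKM, lowest in WT replicate 1 and highest in kat6a replicate 4, and epyc gave 76.5% to 93.0% of that sum.

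**Figure D1:**
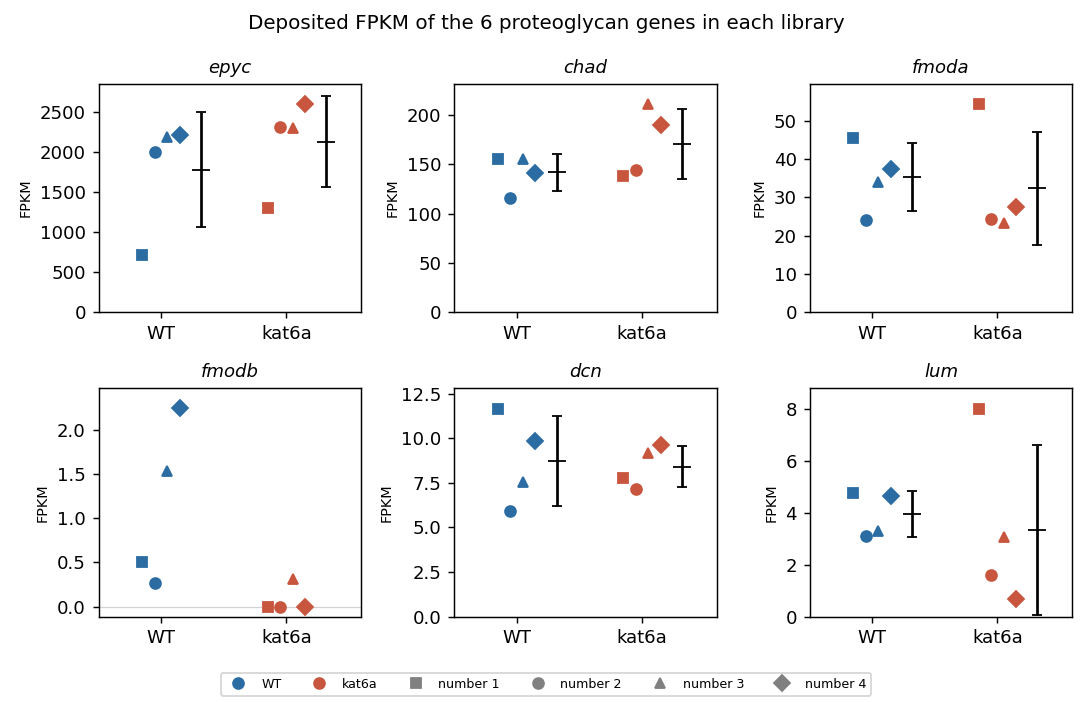
FPKM (y axis, linear) of each of the 6 genes in the 4 WT (blue) and 4 kat6a (red) libraries, with the marker shape giving the replicate number and the black bar the mean ± SD, left out for fmodb because of its listed zeros. The WT and kat6a points overlap for every gene, and the libraries numbered 1 (squares) are lowest for epyc and highest for fmoda and lum within each group.

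Epyc (ENSDARG00000056950) encodes epiphycan, known in chick and mouse as a proteoglycan of growth plate cartilage. WT replicates 1 to 4 held 710, 1995, 2185 and 2210 FPKM, and kat6a replicates 1 to 4 held 1302, 2315, 2298 and 2591 FPKM. Its level ranked between 10 and 64 among all genes of a library, so it belonged with the most abundant transcripts of the sort. WT replicate 1 was low and the other 3 WT libraries were close together; kat6a replicate 1 was also the lowest of its group, and the groups overlapped. Group means were 1775 ± 716 FPKM (WT) and 2126 ± 566 FPKM (kat6a; SD, n = 4 for both here and for the genes that follow). The log2 fold change was 0.35 ± 0.37 (SE; 95% interval -0.47 to 1.16; limma adjusted p = 0.970). An exact permutation test gave p = 0.457, so without pairing the difference was within the spread between libraries. With the replicate number as a block the SE was 0.14 and the unadjusted limma p 0.0414, and the adjusted p was 0.474.

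The epyc level was higher in the kat6a library of 4 of 4 pairs sharing a number, by 1.84-fold in the first pair and by 1.16-, 1.05- and 1.17-fold in the others. The same pattern of 4 of 4 pairs higher was met by 4.49% of tested genes. Without both libraries numbered 1 the group means were 2130 ± 118 FPKM (WT) and 2401 ± 165 FPKM (kat6a; SD, n = 3), with a log2 fold change of 0.17 and limma adjusted p = 0.775. Without WT replicate 1 alone the direction turned, at -0.048 on the log2 scale. Under median-ratio, quantile and upper-quartile scaling of all 8 libraries the epyc log2 fold change was 0.51, 0.31 and 0.57. The limma adjusted p values there were 0.976, 0.999 and 0.956. Set against the main cartilage collagen gene within a library, epyc came to 7.89%, 9.71%, 11.03% and 12.4% of the col2a1a level in WT and to 12.1%, 11.8%, 11.97% and 14.9% in kat6a. These ratios overlapped between the groups through WT replicate 4, and WT replicate 1 was again the lowest.

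Chad (ENSDARG00000045071) encodes chondroadherin, which in mammals binds collagen II and integrins. In replicate order WT libraries held 156, 116, 156 and 141 FPKM and kat6a libraries 138, 144, 211 and 190 FPKM. It was the steadiest of the 6 genes, with a highest value 1.82-fold above the lowest, and it ranked between 203 and 326 in a library. The kat6a libraries numbered 3 and 4 were above every WT library and the other 2 were not, so the groups overlapped. Group means were 142 ± 18.7 (WT) and 171 ± 35.3 FPKM (kat6a), and the kat6a library was higher in 3 of 4 pairs. The log2 fold change was 0.25 ± 0.19 (SE; 95% interval -0.17 to 0.67; limma adjusted p = 0.958), and the exact permutation test gave p = 0.257. That fold change was 0.41, 0.21 and 0.47 under median-ratio, quantile and upper-quartile scaling. The limma adjusted p values there were 0.976, 0.999 and 0.956.

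Fmoda (ENSDARG00000044895) encodes fibromodulin, a keratan sulfate proteoglycan that in mammals binds collagen fibrils and guides their cross-linking. WT libraries held 45.6, 24.2, 34.0 and 37.4 FPKM and kat6a libraries 54.3, 24.5, 23.2 and 27.4 FPKM, in replicate order. The libraries numbered 1 were the highest of each group, above all 6 others. Group means were 35.3 ± 8.86 (WT) and 32.3 ± 14.7 FPKM (kat6a). The log2 fold change was -0.18 ± 0.30 (SE; 95% interval -0.84 to 0.49; limma adjusted p = 0.988; exact permutation p = 0.600), and upper-quartile scaling turned it to 0.038.

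Its paralog fmodb (ENSDARG00000010294) was near the lower end of the table. WT libraries held 0.501, 0.271, 1.53 and 2.25 FPKM; kat6a replicates 1, 2 and 4 were listed at 0 and kat6a replicate 3 at 0.313 FPKM. The kat6a value was lower in 4 of 4 pairs, as it was for 16.3% of tested genes, but the groups overlapped because kat6a replicate 3 stood above WT replicate 2. The log2 fold change was -0.89 ± 0.34 (SE; 95% interval -1.66 to -0.13). The limma adjusted p was 0.958, against 0.0257 before adjustment, and the exact permutation p was 0.0571. The fold change rests on taking the listed zeros as levels, and it ran from -0.63 under quantile normalisation to -2.75 with a pseudocount of 0.1. Kat6a replicates 1, 2 and 4 also had the fewest genes above 0 of all libraries, at 12541, 13429 and 11010. The 5 libraries with fmodb above 0 had 13483 to 16108. The part of this in the fmodb difference was not tested. In those 5 libraries fmoda stood 16.6- to 91.0-fold above fmodb.

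Dcn (ENSDARG00000012066) encodes decorin, which in mammals decorates collagen I fibrils and binds TGF-beta. WT libraries held 11.7, 5.92, 7.57 and 9.85 FPKM and kat6a libraries 7.77, 7.14, 9.15 and 9.60 FPKM, in replicate order. All kat6a values lay within the WT range. Group means were 8.75 ± 2.52 (WT) and 8.41 ± 1.16 FPKM (kat6a). The log2 fold change was -0.021 ± 0.25 (SE; 95% interval -0.58 to 0.54; limma adjusted p = 0.999; exact permutation p = 0.857). Its sign turned under each scaling, at 0.13 with median ratios, 0.13 with quantiles and 0.18 with the upper quartile.

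Lum (ENSDARG00000045580) encodes lumican, a keratan sulfate proteoglycan that keeps the mouse cornea clear. WT libraries held 4.76, 3.11, 3.28 and 4.64 FPKM and kat6a libraries 8.001, 1.58, 3.07 and 0.685 FPKM, in replicate order. The WT libraries were close to each other, while kat6a held both the highest and the lowest of the 8 values. Group means were 3.95 ± 0.875 (WT) and 3.34 ± 3.26 FPKM (kat6a), and the coefficient of variation was 22.2% in WT and 97.8% in kat6a. The kat6a value was lower in 3 of 4 pairs, the exception being the pair numbered 1. The log2 fold change was -0.46 ± 0.47 (SE; 95% interval -1.501 to 0.58; limma adjusted p = 0.968; exact permutation p = 0.371). Without both libraries numbered 1 it was -0.83, with limma adjusted p = 0.769. Lens and cornea markers, a list that holds kera but not lum, moved with the groups. Of 13 tested, 13 had a log2 fold change below 0, beside 69.5% of all tested genes. Of these 2 were called lower, and they were the only genes called among all 11763. The summed FPKM of the list was 211 to 386 in WT and 87.4 to 124 in kat6a. Kera itself, at 0 to 2.08 FPKM, had a log2 fold change of -0.029 and was higher in kat6a in 3 of 4 pairs. The highest gene of the list, foxc1a, held 73.6 to 254 FPKM over the 8 libraries, so it made up most of the list sum in every kat6a library. Foxc1a may not be specific to lens or cornea. The part of lens and cornea cells in the lum values was not tested.

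None of the 6 genes was called in either direction, at a background of 0.0170% of tested genes called. That share stands for 2 genes of 11763, both lower in kat6a and both on the lens and cornea list. Of the 6 genes 2 had a log2 fold change above 0 and 4 below 0, while 30.5% and 69.5% of all tested genes did, and the median over all tested genes was -0.16. That median was -0.041 with median-ratio scaling, 0.017 with quantile normalisation and 0.0020 with upper-quartile scaling. At an unadjusted limma p under 0.05, 0 of the 6 were higher and 1, fmodb, was lower, where 0.646% and 3.92% of tested genes were. The authors' deposited table gives the fold the other way round, WT over kat6a. Its values were 1.001 for epyc, 0.828 for chad, 0.945 for fmoda, 1.82 for fmodb, 0.928 for dcn and 1.08 for lum. Fmoda and dcn thus went the other way from the limma fold changes, and epyc was near no change. Chad, fmodb and lum had the same direction in both. The q-value of the authors' deposited table was 0.877 for fmodb and 0.880 to 0.998 for the other 5 genes.

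**Figure D2:**
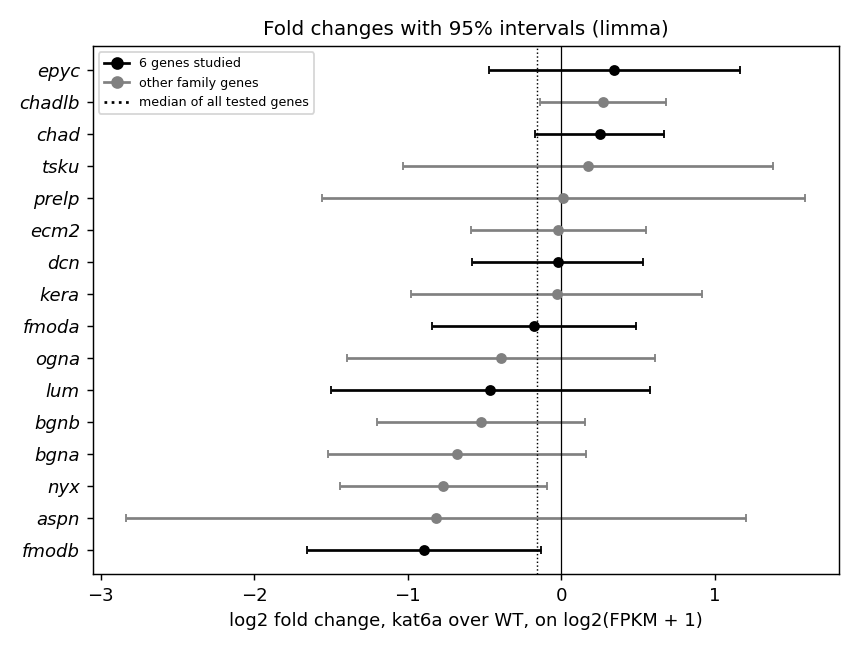
Log2 fold change from WT to kat6a, computed on log2(FPKM + 1) (x axis), for the 6 genes (black) and the 10 other tested family genes (grey), with 95% limma intervals and the median of all tested genes (-0.16) dotted. Only the intervals of fmodb and nyx lie wholly below 0, and neither gene passed the adjusted threshold.

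The wider family was drawn in to place the 6 genes. Of 16 other family symbols 15 were found in the table and 10 passed the filter; optc and ognb, the opticin gene and the second osteoglycin gene, were listed at 0 in every library. The gene nearest to epyc and chad in level was chadlb, a chondroadherin-like gene, with 153, 232, 244 and 206 FPKM in the WT libraries and 205, 250, 278 and 269 FPKM in the kat6a libraries. Its kat6a value was higher in 4 of 4 pairs, with a log2 fold change of 0.27 ± 0.18 (SE) and limma adjusted p = 0.958. Chadlb and chad were in that order in 7 of 8 libraries, and their ranges overlapped. The partner gene chadla never exceeded 0.211 FPKM.

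By mean FPKM prelp and ogna stood between chad and dcn, though prelp was above chad in both libraries numbered 1. Prelp encodes PRELP, a leucine-rich repeat protein that in mammals links collagen to heparan sulfate, and ogna encodes osteoglycin. Prelp levels were 188, 23.1, 31.5 and 32.7 FPKM for WT and 149, 20.8, 37.1 and 40.8 FPKM for kat6a, so the libraries numbered 1 were the 2 highest. Prelp and fmoda could not be ordered, since prelp was the higher of them in 4 of 8 libraries. Ogna levels were 51.1, 13.5, 26.8 and 34.1 FPKM for WT and 44.8, 11.96, 16.8 and 22.7 FPKM for kat6a. Ogna was lower in kat6a in 4 of 4 pairs, as were 16.3% of tested genes, with limma adjusted p = 0.976. Fmoda exceeded ogna in 7 of 8 libraries.

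By mean FPKM over the 8 libraries aspn (asporin) and ecm2, relatives of decorin, stood near dcn. For aspn that mean rests on the libraries numbered 1, since outside them dcn was higher, at 5.92 to 9.85 FPKM. Aspn reached 25.2 FPKM in WT replicate 1, 16.02 in kat6a replicate 1 and 0 to 3.93 FPKM elsewhere, while ecm2 was 4.99 to 9.49 FPKM. The biglycan genes were low: bgna was 0 to 3.20 FPKM and bgnb 0 to 1.32 FPKM. Each was lower in kat6a in 4 of 4 pairs, as were 16.3% of tested genes. The nyctalopin gene nyx, known from retinal synapses, had WT levels of 1.67, 0.795, 0.626 and 1.84 FPKM and kat6a levels of 0.507, 0.560, 0.127 and 0 FPKM. Its groups did not overlap, as for 2.57% of tested genes in that direction, and its limma adjusted p was 0.958. In total 0 of 10 other family genes were called, beside 0.0170% of all tested genes. By any amount 3 were higher and 7 lower, beside 30.5% and 69.5% of all tested genes. Their median log2 fold change was -0.21, beside -0.16 over all tested genes. It was -0.62 without kat6a replicate 1, -0.48 without WT replicate 2, -0.13 without WT replicate 1, -0.12 without kat6a replicate 2, -0.096 without kat6a replicate 4 and -0.018 with the expression minimum raised to a mean of 1 FPKM, -0.43 without both libraries numbered 1, and -0.13, -0.090 and -0.097 under median-ratio, quantile and upper-quartile scaling. The tsukushi gene tsku was 0.560 to 5.82 FPKM, and omd, podn, kera and chadla had maxima of 0.321, 0.420, 2.08 and 0.211 FPKM.

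**Figure D3:**
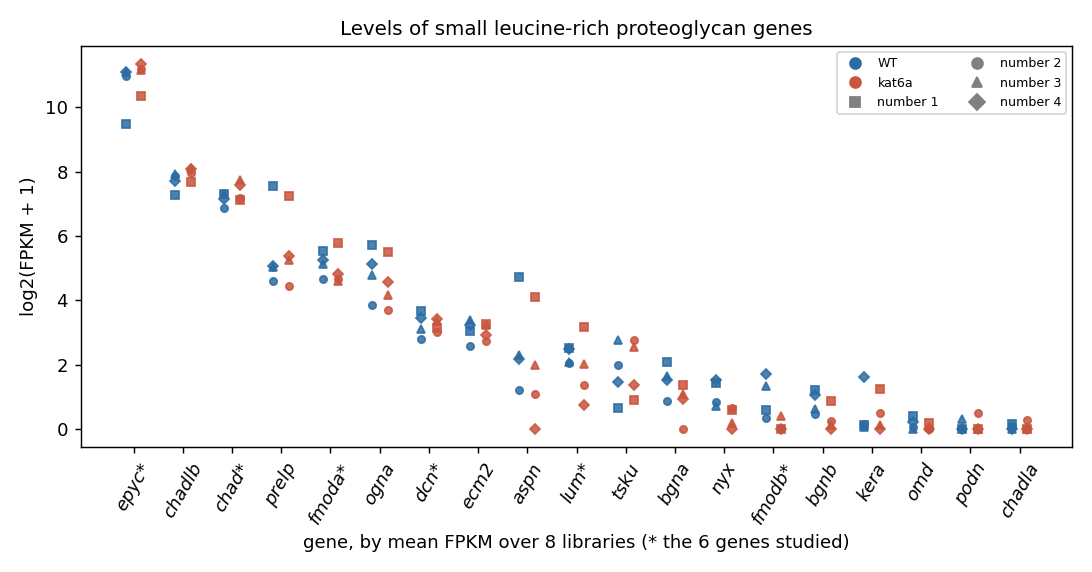
Log2(FPKM + 1) of the 19 family genes listed above 0 in at least 1 library (x axis, ordered by mean FPKM), 1 point per library, WT in blue and kat6a in red, with the marker shape giving the replicate number. Epyc is alone at the top, chadlb and chad follow, and the points of most later neighbours overlap.

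Several of these genes are neighbours on their chromosome. Some neighbours differed widely in level and others were close. In the RefSeq gene order of the assembly GRCz12tu, which is not the build of the files and was used for order only, epyc, kera, lum and dcn follow each other on chromosome 4 as a run of 4 protein-coding genes. Mean FPKM along that run was 1951 for epyc, 0.525 for kera (keratocan, a corneal proteoglycan), 3.64 for lum and 8.58 for dcn. Kera levels were 0.0969, 0.110, 0.0509 and 2.08 FPKM for WT and 1.37, 0.403, 0.0964 and 0 FPKM for kat6a. On chromosome 11 fmoda and prelp are separated by a single protein-coding gene, with means of 33.8 and 65.4 FPKM. Prelp was the higher in 4 of 8 libraries, namely both libraries numbered 1 and kat6a replicates 3 and 4. On chromosome 22 ogna, omd, aspn and ecm2 form a further run of 4, with means of 27.7, 0.0883, 6.77 and 7.44 FPKM. Omd stayed at or below 0.321 FPKM, while the means of aspn and ecm2 were close. Chad and chadlb both lie on chromosome 12 without being neighbours, fmodb lies on chromosome 8, and the biglycan genes on chromosomes 8 and 23.

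**Figure D4:**
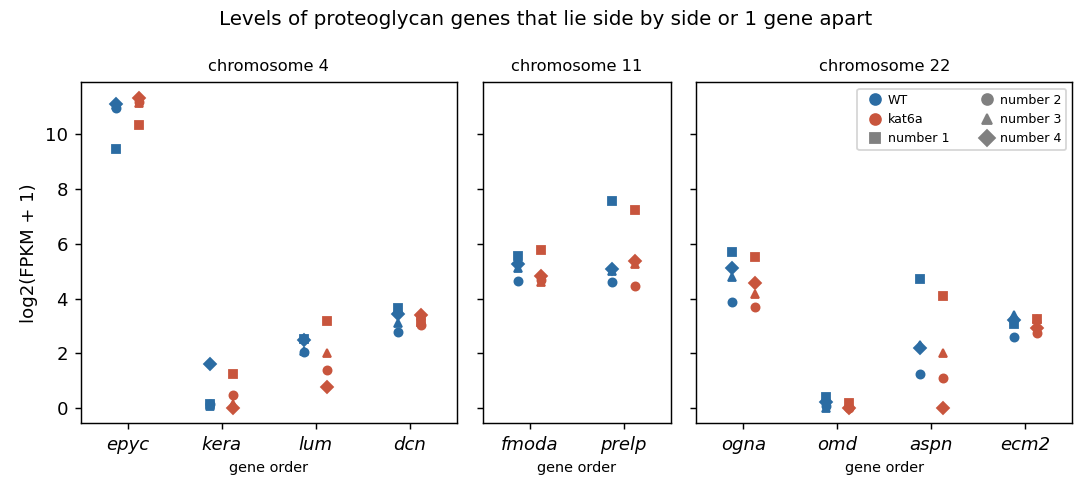
Log2(FPKM + 1) (y axis) of family genes in their order along chromosomes 4, 11 and 22, 1 point per library, WT in blue and kat6a in red, marker shape by replicate number. On chromosome 4 epyc stands far above the other 3 genes of its run.

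Some of the 6 genes stood apart in the libraries numbered 1. Epyc was below all 6 other libraries in both libraries numbered 1, at 0.444 times their mean, as were 6.21% of tested genes. Fmoda and lum were above all 6 others in both, at 1.76 and 2.34 times their mean, as were 28.5% of tested genes. Chad, dcn and fmodb did neither. In the wider family prelp, aspn and ogna were above, at 5.44, 9.56 and 2.29 times the mean of the others, and chadlb and tsku were below. Of the 25 tested rows of perichondrium, tendon and fibroblast markers 12 were above in both libraries numbered 1 and 6 below, while their summed FPKM was 1170 to 1334 there and 1217 to 1568 elsewhere. Of the 24 chondrocyte markers 6 were above and 13 below, with sums of 44559 to 54521 FPKM against 82307 to 93493. Of the 4 tested notochord markers 2 were above and 1 below, and the list summed to 177 to 191 FPKM against 44.4 to 57.7. The part of these cell types in the levels was not tested.

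**Figure D5:**
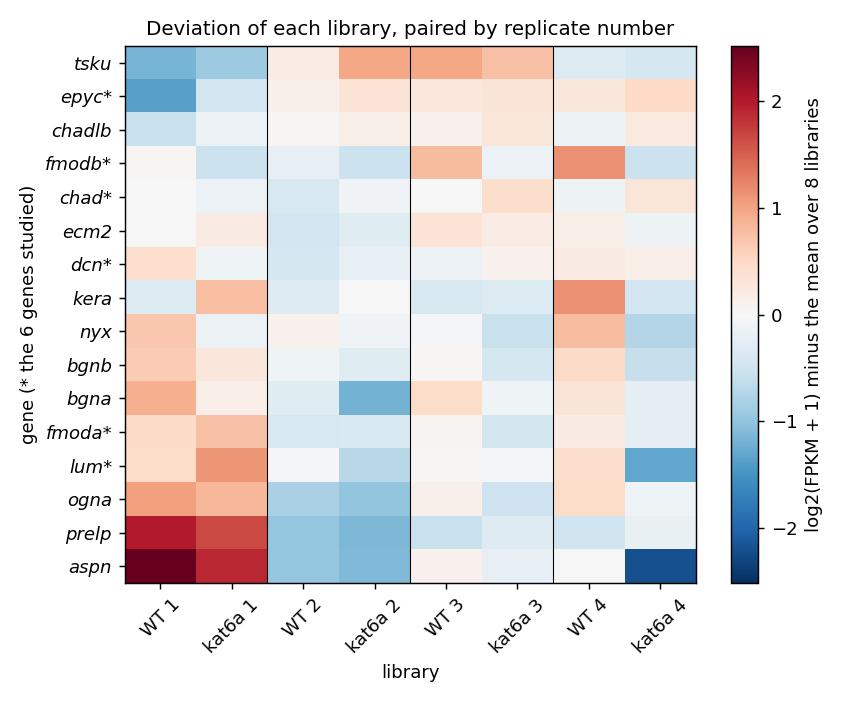
Log2(FPKM + 1) minus the gene's mean over the 8 libraries (colour, red above and blue below) for the 16 tested family genes (rows) in each library (columns, paired by replicate number). In both libraries numbered 1 aspn, prelp, ogna, lum, fmoda, bgna and bgnb are above their mean, and ecm2 only just, while epyc, chadlb and tsku are below.

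Across the 8 libraries the correlations of log2(FPKM + 1) between members were of both signs. Pearson's r was 0.74 for fmoda with lum, 0.57 for chad with dcn and -0.71 for epyc with fmoda; chromosome neighbours lum and dcn had 0.067, and epyc had -0.61 with lum and -0.43 with dcn. These are descriptions over 8 libraries that share scale and the contrast of libraries numbered 1 with the rest. Among 2747 other named genes with a mean of at least 10 FPKM, the closest to epyc was otos, the otospiralin gene, with r = 0.995 and levels of 755, 2501, 2988 and 3258 FPKM for WT and 1665, 3332, 3549 and 3768 FPKM for kat6a. The serine protease gene prss35 and sdf4, which encodes a calcium-binding protein of the Golgi, followed with r = 0.991 and 0.984. For chad the closest were slc25a5, lrrc58b and oga, with r = 0.961, 0.912 and 0.901. For fmoda they were wasf2, neo1a and pcf11, at 0.976 to 0.968. For dcn they were rbm14a, rtf1 and rsl24d1, with r = 0.928, 0.923 and 0.907, and for lum slc25a55a, marcksl1b and acbd3, with 0.978, 0.965 and 0.962. Of the 6 genes epyc, chad and fmoda reached that mean, and none of these was among the 3 closest genes of another member.

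The genes that these proteins work with were counted next, from lists written from general knowledge. Among collagens listed as their partners, 0 of 21 tested rows were called. By any amount 7 were higher and 14 lower, beside 30.5% and 69.5% of all tested genes. The median log2 fold change was -0.23, beside -0.16 over all tested genes. The list median was -0.087 with median-ratio and -0.027 with upper-quartile scaling, -0.37 without WT replicate 2, -0.099 without kat6a replicate 2 and -0.14 without kat6a replicate 4. The smallest unadjusted p values belonged to col5a1, with 55.5 ± 7.92 (WT) and 42.3 ± 10.04 FPKM (kat6a; SD, n = 4; limma adjusted p = 0.958), to col11a1b and to col12a1a, with log2 fold changes of -0.40, -0.36 and -0.51. Among the lysyl oxidases and lysyl hydroxylases listed for collagen cross-linking, 0 of 9 were called, 7 were higher and 2 lower, with a median of 0.17. Leaving out single libraries moved it between -0.018, without WT replicate 1, and 0.27, without kat6a replicate 3, with 0.12 and 0.102 without WT replicate 3 or 4 and 0.065 and 0.052 without kat6a replicate 1 or 2; median-ratio and upper-quartile scaling gave 0.32 and 0.36. In this list loxl2b levels were 43.8, 41.4, 54.4 and 50.2 FPKM for WT and 38.5, 23.2, 32.7 and 37.3 FPKM for kat6a. Its groups did not overlap, as for 2.57% of tested genes in that direction, and its limma adjusted p was 0.958, with a log2 fold change of -0.53 ± 0.21 (SE). The lysyl hydroxylase genes plod1a and plod2 had 0.29 and 0.22.

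Of the enzymes that build the linker of the sugar chain or make keratan and dermatan sulfate, 0 of 14 were called. By any amount 2 were higher and 12 lower, beside 30.5% and 69.5% of all tested genes. The list median was -0.17, beside -0.16 over all tested genes. It was -0.29 without kat6a replicate 1 and -0.044, -0.038 and -0.00092 under median-ratio, quantile and upper-quartile scaling. The sulfotransferase genes chst2a and chst6 and the xylosyltransferase gene xylt1, which starts the chain, had log2 fold changes of -0.56, -0.60 and -0.29. Each was lower in 4 of 4 pairs, as were 16.3% of tested genes, and each had limma adjusted p = 0.958. Of the proteases and cofactors that process or break down these proteins and collagen, 0 of 13 rows were called, 5 were higher and 8 lower, with a median of -0.027 that turned to 0.11, 0.064 and 0.17 under median-ratio, quantile and upper-quartile scaling, and to 0.040 and 0.091 without WT replicate 3 or kat6a replicate 1. The matrix metalloprotease gene mmp2 had WT levels of 802, 656, 873 and 878 FPKM and kat6a levels of 1071, 921, 1122 and 1164 FPKM. Its groups did not overlap, as for 0.561% of tested genes in that direction, with a log2 fold change of 0.42 ± 0.14 (SE) and limma adjusted p = 0.958 against 0.0160 before adjustment. The procollagen C-proteinase enhancer gene pcolceb and mmp9 had 0.28 and -0.36.

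Genes listed as markers of other cells were low beside epyc but not absent, and some were high beside the other members. A listed gene need not be specific to those cells. The highest by mean FPKM was tgfbi among perichondrium, tendon and fibroblast markers, at 160 to 412 FPKM, actc1b among muscle markers, at 227 to 474, foxc1a among lens and cornea markers, at 73.6 to 254, krt4 among epidermis markers, at 6.57 to 88.9, and cav1 among notochord markers, at 13.6 to 116. Fli1a led the blood, leukocyte and endothelium list, at 17.1 to 39.2 FPKM, and stm the inner ear list, at 4.01 to 30.7. And2 led the fin fold list, at 2.15 to 26.9 FPKM, and mbpa the pigment, Schwann cell and neuron list, at 0.362 to 4.85. By mean FPKM tgfbi (315) and actc1b (290) stood above chad (156) and every lower member. Foxc1a (111) and cav1 (42.4) stood between chad and fmoda (33.8). Krt4, fli1a, stm, and2 and mbpa stood below fmoda. The summed perichondrium, tendon and fibroblast markers were 1217 to 1568 FPKM in WT and 1170 to 1377 in kat6a, and 0 of 25 tested rows were called. The chondrocyte list had 22 of 24 members above 0 in log2 fold change and 0 called, with a median of 0.083, beside 30.5% of all tested genes above 0. That median was -0.0084 without WT replicate 1, 0.16 without WT replicate 2, 0.13 without WT replicate 3, 0.22 without kat6a replicate 1 and 0.053 without kat6a replicate 4, and 0.24 and 0.298 under median-ratio and upper-quartile scaling. The hypertrophic chondrocyte list had 0 of 12 called, with a median of -0.12 that turned sign under each scaling and ran from -0.27, without kat6a replicate 2, to 0.20, without kat6a replicate 1, with single libraries left out. Its highest gene, col10a1a, held 484 to 2500 FPKM, a range that overlapped that of epyc. Muscle markers summed to 578 to 922 FPKM in WT and 782 to 1280 in kat6a, with 0 of 17 rows called. Of these rows 14 were higher and 3 lower, with a median log2 fold change of 0.42. That median ran from 0.26, without kat6a replicate 3, to 0.64, with upper-quartile scaling. At an unadjusted limma p under 0.05, 3 muscle rows were higher, beside 0.646% of tested genes. No gene was called by limma in the lists of epidermis (11 tested), fin fold (7), inner ear (4), notochord (4), pigment, Schwann cell and neuron (4) or blood, leukocyte and endothelium markers (8). Of the last list 2 genes were higher at an unadjusted limma p under 0.05, beside 0.646% of tested genes. Of the epidermis list 1 gene was lower at that p, beside 3.92% of tested genes. All 11 epidermis markers had a log2 fold change below 0, beside 69.5% of all tested genes. Their median was -0.84, or -0.30 without WT replicate 4, whose sum was 643 FPKM against 30.4 to 136 in the other 7 libraries. Of the fin fold markers 6 of 7 were below 0, with a median of -0.61, or -0.12 without WT replicate 4 and -0.30 without kat6a replicate 4; their sum was 79.4 FPKM in WT replicate 4 and 13.6 to 28.3 elsewhere. The part of these cells in the proteoglycan values was not tested.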

How the data were processed

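RNA of 8 libraries, 4 WT and 4 kat6a, was measured by directional RNA sequencing. The authors deposited FPKM per Ensembl gene, per the file headers, with their own fold (a ratio of WT over kat6a), p-value and q-value. The submitters' processing notes name HISAT2, StringTie and the build GRCz10 without roles or settings. WT replicate 4 follows its title, since its library name repeats another number. Columns of values not tied to a sample numbered 0.

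Depth is unknown, so no counting interval was computed. All 13 mitochondrial genes were listed at 0. The test was a two-sided limma fit (version 3.58.1, R 4.3.3, eBayes with trend) of log2(FPKM + 1). Genes averaging under 0.5 FPKM across all libraries were left out. A call needed an adjusted p (Benjamini-Hochberg, 11763 genes) under 0.05. On simulated data for this comparison, 70% of 200 genes changed by 2 on the log2 scale were recovered, and 6.04% of the calls were false. Noise was drawn independently for each library, without any joint deviation of libraries. Smaller changes were not simulated. The exact permutation test of 4 against 4 cannot go below 0.0286. The design calls the samples biological replicates, and p-values measure the spread between them.

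Members, 16 gene lists and tests were chosen with earlier results of these data known. Named were the 6 genes, every other family gene found, the 3 list genes with the smallest p, the highest marker of a list of other cells, and the 3 genes most correlated with each member above 0 in all libraries. Where a symbol has more than 1 row, each was counted. Deviations from the group mean correlated between libraries sharing a number, with r = 0.589, 0.347, 0.127 and 0.151 for pairs 1 to 4. Libraries with different numbers were not compared in this way, so these values cannot show that the numbers mark pairs. The titles give replicate numbers only. Pair counts and the block alternative take the numbers as pairs without further evidence.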

Additional observations from a re-analysis of the deposited data

Results flagged for a closer look

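A library in a group of 4 was marked when its gap to the nearest other, over the group's range, exceeded Dixon's 95% critical value. Chance gives that in about 1 in 20 groups of normal values. The 38 groups of family genes share libraries, and some hold listed zeros, so that rate does not apply to them as a set. Of the 38 groups 10 were marked. Among these, 4 were libraries numbered 1 with the highest value: fmoda at 54.3 FPKM in kat6a against 23.2 to 27.4, prelp at 188 FPKM in WT against 23.1 to 32.7 and at 149 FPKM in kat6a against 20.8 to 40.8, and aspn at 25.2 FPKM in WT against 1.34 to 3.93. Epyc was low in WT replicate 1, at 710 FPKM against 1995 to 2210. Kera was high in WT replicate 4, at 2.08 FPKM against 0.0509 to 0.110. The other 4 were single values above listed zeros, which the rule always marks. They were fmodb at 0.313 FPKM in kat6a replicate 3 and chadla at 0.211 FPKM in kat6a replicate 2. Podn was marked at 0.246 FPKM in WT replicate 3 and at 0.420 FPKM in kat6a replicate 2.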

How the results depend on the processing

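None of the 6 genes was called in any of the 18 alternatives run. The count over all genes, 2, was 0 without a filter, with any of the scalings (median ratio, quantile, upper quartile), with the replicate block and median-ratio scaling together, and without both libraries numbered 1. It was 1 with a pseudocount of 0.1 and 1 with the replicate block, and 14 with array weights. With single libraries left out it ran from 0 to 5. The block changed no call of the 6 genes. With the block the unadjusted limma p was 0.0414 for epyc, 0.0869 for chad and 0.312 for fmoda. It was 0.0214 for fmodb, 0.914 for dcn and 0.278 for lum. The limma adjusted p with the block ran from 0.451 for fmodb to 0.972 for dcn. With single libraries left out the log2 fold change of epyc ran from -0.048 (without WT replicate 1) to 0.57 and that of dcn from -0.17 to 0.12. Fmoda turned to 0.038 under upper-quartile scaling. Dcn turned to 0.13 with median ratios, with or without the block, 0.13 with quantiles, 0.18 with the upper quartile, 0.097 with array weights and 0.15 without both libraries numbered 1. Chad, fmodb and lum kept their direction in every alternative that tested them; fmodb was not tested at a mean FPKM of at least 1. Among other named genes ecm2 turned to 0.12 with median ratios, with or without the block, 0.15 with quantiles and 0.17 with the upper quartile, and kera to 0.022 with a pseudocount of 0.1 and 0.11 with quantiles. With single libraries left out the ranges that crossed 0 were -0.18 to 0.092 for ecm2, -0.29 to 0.35 for kera, -0.54 to 0.68 for prelp, -0.18 to 0.53 for tsku and -0.018 to 0.50 for plod1a. The causes were not tested. Depth is unknown, which limits the genes near 0 FPKM.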
